A study of Mus musculus with 12 samples.

Results

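Genes that encode very large proteins were examined across treatments of mouse epiblast stem cells (EpiSCs), pluripotent cells that resemble the post-implantation epiblast. The list held 49 gene names, of which 48 were measured among 19938 genes and 47 lay above background. The genes were chosen by name, as encoding very large proteins, with earlier results of these data in view. Which measured values played a part in that choice is not recorded, so counts and medians over the list are descriptions and support nothing further. Each gene was represented by the probe with the highest mean over the 12 arrays among probes annotated to that gene alone, and Ubr4 was not analysed here.

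The cells were of genetic background 129, and by the design text they were starved of serum for 12 h before treatment, although the growth medium recorded for every sample holds 10% serum. One group of 3 arrays was untreated. Another received CHIR99021 (3 µM, 2 h), an inhibitor of the kinase GSK3 that stabilises beta-catenin. A further group received XAV939 (2 µM), a tankyrase inhibitor that stabilises Axin and lowers beta-catenin, for 2 h by the sample labels and 4 h by the design text. The last group received both compounds. The labels do not say whether the 3 samples of a group were separate cultures, so each p-value reflects only how far these samples spread, which may be technical.

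Very large proteins serve many unrelated purposes in a cell. Some are ubiquitin ligases or chromatin enzymes with many binding surfaces along 1 chain, some are rods or bridges that link cytoskeletal filaments or membranes, and some are kinases that sense DNA damage. Their messenger RNAs are long, and an array signal reports the abundance of the stretches its probes match. A level here is log2 expression as deposited, and a difference is between group means on that scale. Fewer cells of one kind and less RNA per cell cannot be told apart in these bulk samples.

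Array medians lay from 5.22 to 5.27. The standard deviation (SD) of an array's values lay between 2.14 and 2.21, and it was lowest on untreated replicate 3 and XAV939 replicate 2. Markers were checked for the labelled cell type. All 6 pluripotency markers were above background, with Pou5f1 at 11.5, and so were all 6 markers of primed epiblast, with Fgf5 at 8.16 and Sox3 at the edge of background at 4.96. Of 8 markers of naive embryonic stem cells, 4 (Zfp42, Esrrb, Dppa3 and Nr0b1) lay below background. The other 4 lay above it: Tfcp2l1 at 6.29, Klf2 at 5.54, Tbx3 at 5.05 and Klf4 at 4.965. Of 9 fibroblast markers, 6 (Col3a1, Pdgfra, Pdgfrb, Postn, Lum and Dcn) lay below background, while Thy1 was at 7.54, Col1a1 at 5.36 and Col1a2 at 5.05. The mean over the 9 was between 4.81 and 5.01 on every array.

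Background was set at 4.94: 95% of 1196 receptor genes of smell and pheromone sensing had a mean over the arrays under that value. Syne1, which encodes a nuclear envelope linker of the cytoskeleton, was the 1 member below it at 4.59, and Ahnak, which encodes a scaffold of the cell periphery, was next at 5.52. The 3 brightest probes were those of Usp9x (10.99), a deubiquitinase, Ranbp2 (10.9), a nucleoporin, and Huwe1 (10.7), a ubiquitin ligase. The dimmest after Ahnak was that of Lyst (5.89), a regulator of lysosome traffic. Brightness depends on the probe as well as on the transcript, so these values order the probes and not the genes. All 47 expressed members were above the median of all genes tested, and 36 of them were above the median of expressed genes.

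**Figure D1:**
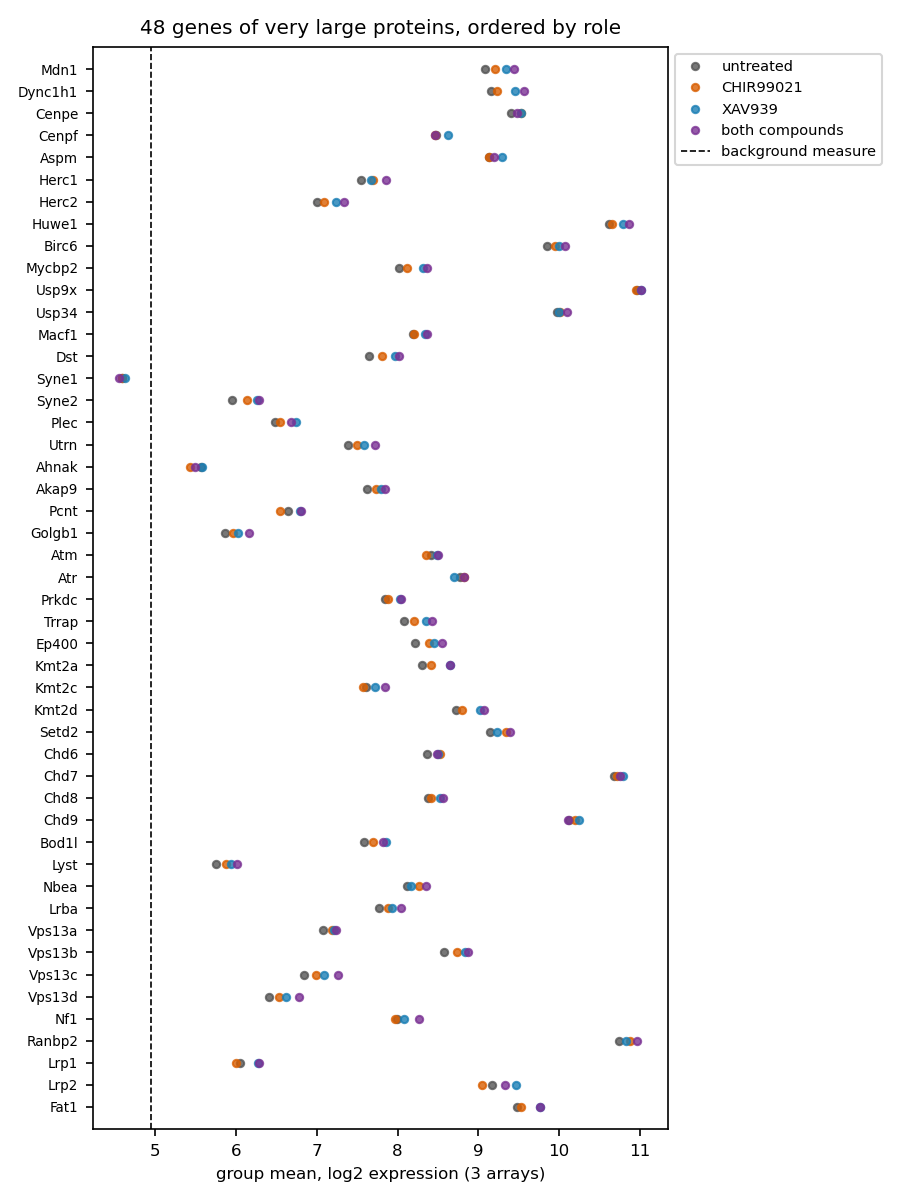
Group means of log2 expression (3 arrays each) for the 48 measured genes, ordered by role from Mdn1 to Fat1, with the background measure of 4.94 as a dashed line. Purple points (both compounds) lie to the right of grey points (untreated) for 44 of the 47 genes above background, and Syne1 lies left of the line. Of all expressed genes, 65.2% had a higher mean with both compounds.

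RefSeq windows of 300 bases (GRCm38.p6; 250 before to 50 after a transcription start) were at hand for 41 of the 49 genes, 47 windows in all. Their median G+C content was 65.7%, against 61.0% for windows of expressed genes and 52.7% for all windows. The median number of CpG dinucleotides was 27, against 21 and 7. Among 14 words of 5 to 8 letters searched on both strands, the GC box GGGCGG was the commonest in member windows. It stood in 38 of 47 member windows (80.9%), in 63.5% of windows of expressed genes and in 35.7% of all 32851 windows. The other words are given as the share of member windows, of windows of expressed genes and of all windows, in that order. GCATGCGC was in 10.6%, 5.43% and 2.71%, and TATAAA in 10.6%, 7.11% and 13.6%. CCGGAAG was in 12.8%, 17.1% and 8.86%, and CCAAT in 27.7%, 37.9% and 37.4%. ATGGCGGC was in 4.26%, 4.8% and 2.24%. CACGTG was in 6.38%, 10.1% and 7.15%, and the longer CACGTGAC, which contains it, in 2.13%, 4.19% and 2.25%. TGACGTCA was in 2.13%, 3.15% and 1.79%. For TGACTCA the shares were 2.13%, 3.43% and 5.2%, and for CTTTGAT they were 2.13%, 2.53% and 3.73%. CTTTGTT was in 4.26%, 3.86% and 5.85%. No member window held TTTCGCGC (0.667% and 0.323% of the others) or CATTGTT (1.77% and 3.78%). A share of 2.13% is 1 of the 47 member windows, so most of these shares rest on few windows. A first screen also held 3 longer words, which were dropped. CTTTGAT is a form of the site of the TCF/LEF factors that beta-catenin binds. A match is a description of the letters, and its absence says only that they are not in the window.

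Windows of 3 genes described below serve as examples, with GGGCGG or its reverse complement in capitals, printed 5′ to 3′ along the gene's strand. Dync1h1 (chr12:110601145-110601444, plus strand) has 3 matches, of which the last 2 share a base, and 30 CpG. The upstream of 2 windows of Dst (chr1:34011345-34011644, plus strand) has 4 matches and 31 CpG. The other Dst window, not printed, has 0 matches and 6 CpG. The window of Utrn (chr10:12861686-12861985, minus strand) has 0 matches and 2 CpG.
Dync1h1: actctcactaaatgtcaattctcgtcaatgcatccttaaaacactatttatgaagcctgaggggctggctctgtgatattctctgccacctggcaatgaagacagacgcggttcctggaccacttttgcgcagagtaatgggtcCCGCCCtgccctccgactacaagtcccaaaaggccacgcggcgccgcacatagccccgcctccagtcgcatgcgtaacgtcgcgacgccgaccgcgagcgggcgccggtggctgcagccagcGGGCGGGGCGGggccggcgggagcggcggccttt
Dst: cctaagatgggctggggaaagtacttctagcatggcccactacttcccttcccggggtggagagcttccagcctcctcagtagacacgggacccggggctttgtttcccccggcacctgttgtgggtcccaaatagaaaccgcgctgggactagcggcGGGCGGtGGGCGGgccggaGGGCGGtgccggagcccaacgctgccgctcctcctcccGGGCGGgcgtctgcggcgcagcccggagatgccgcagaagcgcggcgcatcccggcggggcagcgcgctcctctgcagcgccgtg
Utrn: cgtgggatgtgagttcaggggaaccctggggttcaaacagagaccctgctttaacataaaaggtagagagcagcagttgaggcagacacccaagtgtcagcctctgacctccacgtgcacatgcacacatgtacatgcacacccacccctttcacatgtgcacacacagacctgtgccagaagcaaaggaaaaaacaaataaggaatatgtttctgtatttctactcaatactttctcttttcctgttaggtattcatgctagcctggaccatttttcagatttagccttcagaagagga

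With both compounds against untreated cells, 9 of the 48 measured members were called higher (18.8%) and none lower. A gene was called where limma's adjusted p over all 19938 genes was under 0.05. By that rule 1.13% of all genes were called in either direction and 0.818% were called higher, with 1.71% called higher among the 9353 genes in the brightness range of the expressed members. The differences were small: the 9 genes were between 1.26-fold and 1.34-fold higher. They encode a pair of lipid transfer proteins (Vps13c, Vps13d), the heavy chain of the dynein motor (Dync1h1), a pair of cytoskeletal linkers (Dst, Utrn), a pair of ubiquitin ligases (Mycbp2, Herc2), a ribosome assembly factor (Mdn1) and a chromatin remodeller (Ep400). The number of calls depended on single arrays and on the normalization. Leaving out untreated replicate 1 gave 2 calls, and leaving out untreated replicate 2 or 3 gave 0. Leaving out an array with both compounds gave 1 call (replicate 1), 0 (replicate 2) or 2 (replicate 3). The count was 1 after quantile normalization or cyclic loess, 2 in a fit to these groups alone and 0 with the spread (SD) of each array as a covariate, while it was 18 with a filter at the median and 16 with array weights. Of the 47 expressed members 44 had a higher mean with both compounds, against 47.4% of all genes and 70.9% in the brightness range. The median difference over the 47 was 0.24, against -0.01 over all genes and 0.07 over genes in the brightness range. With single arrays left out the members' median lay between 0.2308 and 0.2445. In 33 of 48 members (68.8%) every array with both compounds was above every untreated array, against 13.0% of all genes and 24.3% in the brightness range. The comparisons with untreated cells share the untreated arrays.

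VPS13 proteins are long bridges that carry lipids between membranes at contact sites. Vps13c was at 6.91, 6.83 and 6.77 untreated and at 7.34, 7.18 and 7.26 with both compounds, while it was at 6.94, 6.996 and 7.03 with CHIR99021 and at 7.16, 7.02 and 7.09 with XAV939. The untreated arrays lay below all others, and the arrays with both compounds above all others. It rose by 0.42 (SE 0.07, limma adjusted p = 0.0174) with both compounds, the largest difference of any member. Vps13d was at 6.44, 6.53 and 6.25 untreated and at 6.75, 6.88 and 6.73 with both. It rose by 0.38 (SE 0.09, limma adjusted p = 0.04997), just inside the threshold, and a dimmer probe of the gene, at 4.16, below background, differed by -0.09. Vps13b was the member next outside the threshold, with 0.29 (limma adjusted p = 0.0570), and Vps13a had 0.15. All 4 VPS13 members were also higher in the mean with XAV939 alone, by 0.14 to 0.25.

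Dync1h1, the heavy chain that gives cytoplasmic dynein its motor activity, was at 9.22, 9.16 and 9.11 untreated and at 9.21, 9.13 and 9.36 with CHIR99021. It was at 9.39, 9.54 and 9.41 with XAV939 and at 9.55, 9.72 and 9.42 with both compounds. The 6 arrays with XAV939 were thus all above the 6 without it. The rise with both compounds over untreated was 0.40 (SE 0.09, limma adjusted p = 0.0399). Among 17 measured smaller subunits and regulators of dynein and dynactin, none was called in any comparison, and their median difference with both compounds was 0.14.

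The ribosome assembly ATPase gene Mdn1 was at 9.04, 9.11 and 9.10 untreated, and at 9.46, 9.48 and 9.38 with both compounds. CHIR99021 arrays were at 9.12, 9.16 and 9.35 and XAV939 arrays at 9.30, 9.38 and 9.33, so the CHIR99021 group reached into the range of the XAV939 group with its replicate 3. The rise with both was 0.36 (SE 0.08, limma adjusted p = 0.0356).

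Linkers of the cytoskeleton formed a mixed group. Dst, the spectraplakin that joins actin, microtubules and intermediate filaments, was at 7.67, 7.61 and 7.68 untreated, 7.92, 7.99 and 8.001 with XAV939 and 8.03, 8.01 and 8.03 with both. With CHIR99021 it was at 7.65, 7.93 and 7.87, the widest group. It rose by 0.37 with both compounds (SE 0.08, limma adjusted p = 0.0338). Utrn, which encodes utrophin, the dystrophin relative, was at 7.45, 7.32 and 7.39 untreated and 7.77, 7.71 and 7.69 with both, a rise of 0.34 (SE 0.07, limma adjusted p = 0.0342). The other spectraplakin gene, Macf1, and the plectin gene Plec differed by 0.18 and 0.20 and were not called. Ahnak differed by -0.07 (95% interval -0.24 to 0.10), and Syne1 by -0.04 at background. Syne2, a nuclear envelope linker, had a difference of 0.34 with a within-group SD of 0.28 on the arrays with both compounds. Its other 3 probes differed by 0.21, 0.54 and 0.24.

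Of the 7 measured genes of the ubiquitin system, each had a positive difference with both compounds, and 2 were called. Mycbp2, a ubiquitin ligase with roles in axons, was at 8.02, 8.03 and 8.02 untreated and 8.10, 8.09 and 8.15 with CHIR99021. With XAV939 it was at 8.28, 8.31 and 8.37, and with both compounds at 8.32, 8.38 and 8.38. No array with XAV939 overlapped with any array without it. The rise with both compounds was 0.34 (SE 0.07, limma adjusted p = 0.0239). Herc2, a ligase of the DNA damage response, was at 6.97, 7.01 and 7.04 untreated and 7.28, 7.43 and 7.29 with both, a rise of 0.33 (SE 0.08, limma adjusted p = 0.0487). Herc1, Huwe1 and Birc6, the last of which blocks caspases, had differences of 0.31, 0.24 and 0.23. The deubiquitinase genes Usp9x and Usp34 had differences of 0.05 (95% interval -0.10 to 0.19) and 0.13. Of 18 other measured genes of the ubiquitin system, 1 was called higher, the deubiquitinase gene Usp24 (0.30, SE 0.07), which itself encodes a large protein, and the median was 0.09.

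Among the 10 measured chromatin genes, Ep400 alone was called. Ep400, the motor subunit of the acetyltransferase complex that also holds TRRAP, was at 8.22, 8.20 and 8.21 untreated and at 8.53, 8.54 and 8.57 with both compounds. CHIR99021 arrays (8.34, 8.40 and 8.44) and XAV939 arrays (8.37, 8.52 and 8.46) lay between them. The rise with both was 0.34 (SE 0.07, limma adjusted p = 0.0310). Trrap, the pseudokinase scaffold of the same complex, had 0.34 (limma adjusted p = 0.0643), and its other probe also differed by 0.34. Of 14 other subunits of that complex none was called, and their median was 0.09. The histone H3 lysine 4 methyltransferase genes Kmt2a, Kmt2d and Kmt2c had 0.35, 0.34 and 0.24. Setd2, the methyltransferase of H3 lysine 36, had 0.25, and Bod1l, which protects stalled replication forks, had 0.23. Of 12 other KMT2 complex genes none was called, with a median of 0.11. In the chromodomain helicase family, Chd8, Chd6, Chd7 and Chd9 had 0.18, 0.13, 0.07 and -0.01, and of 6 smaller family members none was called (median 0.20).

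The remaining groups held no called gene. The BEACH domain genes Lrba, Lyst and Nbea, of vesicle traffic, had differences of 0.27, 0.26 and 0.25 with both compounds. Those of the DNA damage kinases Prkdc, Atm and Atr were 0.20, 0.09 and 0.05, and the scaffold genes Golgb1, Akap9 and Pcnt of the Golgi and centrosome had 0.29, 0.22 and 0.16. The surface receptor genes Fat1, Lrp1 and Lrp2 had 0.28, 0.22 and 0.16. Nf1, a brake on Ras, had 0.27 and Ranbp2 had 0.22. The mitosis genes Cenpe, Aspm and Cenpf had 0.07, 0.06 and -0.02, and for each of them the arrays with both compounds overlapped with the untreated ones. No gene was called among the measured members of the lists of kinase partners (12), nuclear lamina and LINC complex genes (9) or further BEACH and bridge genes (8), with medians of 0.06, 0.02 and 0.14.

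**Figure D2:**
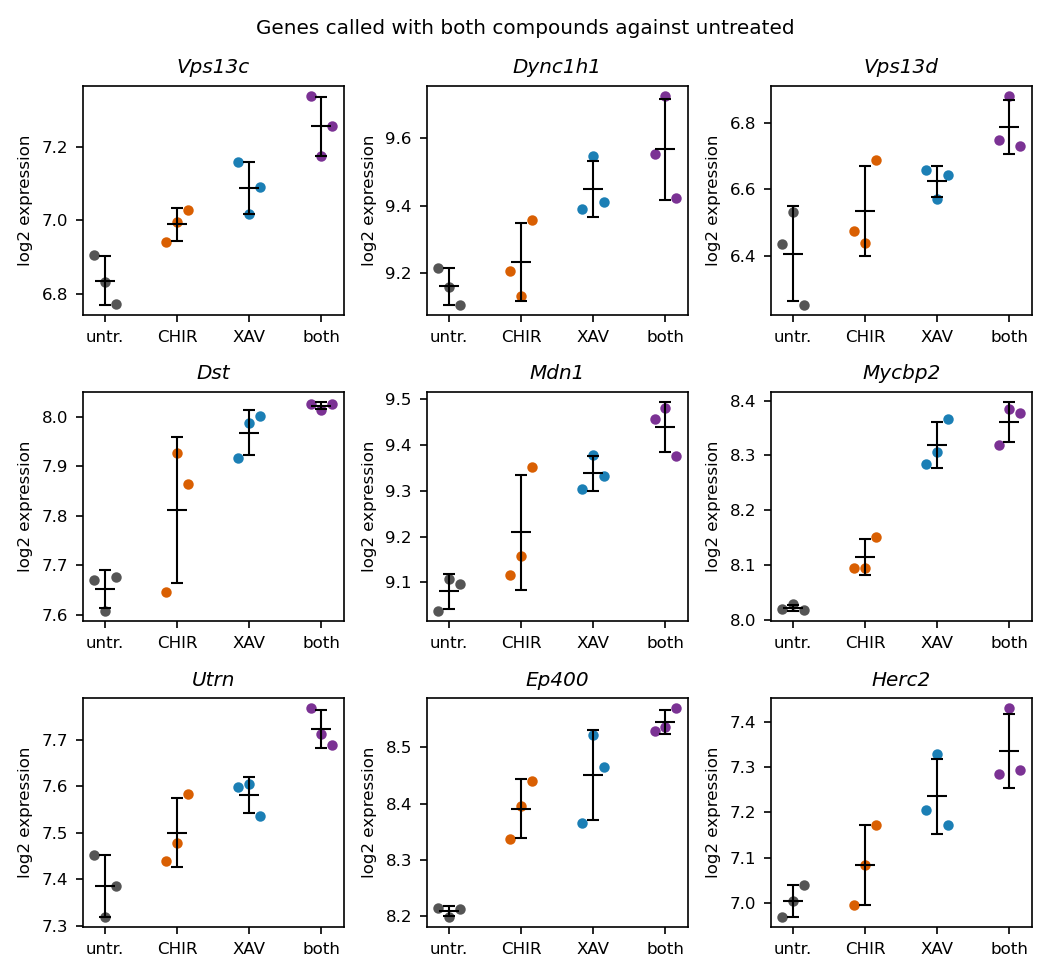
Log2 expression on each of the 12 arrays for the 9 genes called with both compounds against untreated cells, in order of the size of the difference. Points are arrays, horizontal bars the group mean and vertical bars ± SD (n = 3), and the vertical axes differ between panels. In each panel the 3 arrays with both compounds lie above the 3 untreated arrays, as for Vps13c at 7.18 to 7.34 against 6.77 to 6.91. The genes were selected by this comparison, so the separation adds nothing to their calls. It was present in 13.0% of all genes and 24.3% of genes in the brightness range.

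With XAV939 alone against untreated cells limma called no member and 0% of all genes. Of the 47 expressed members, 46 had a higher mean with XAV939, with a median difference of 0.16 (quartiles 0.12 and 0.25), against 0.0006 over all genes and 0.05 over genes in the brightness range. The 1 exception was Atr, which encodes the kinase of replication stress, at -0.07 (95% interval -0.26 to 0.12). The mean was higher with XAV939 in 50.2% of all genes and in 66.5% of genes in the brightness range. In all, 24 of 48 members had an unadjusted p under 0.05, against 11.2% of all genes. For 33 of 48 members (68.8%) every XAV939 array was above every untreated array, against 9.48% of all genes and 16.2% of genes in the same brightness range. The members with the smallest p were Mycbp2 (0.30, SE 0.07), Dst (0.32, SE 0.08) and Lrp2 (0.30, SE 0.08), with limma adjusted p = 0.221, 0.221 and 0.233. Lrp2, which encodes megalin, an endocytic receptor, was at 9.20, 9.16 and 9.14 untreated and at 9.44, 9.53 and 9.43 with XAV939. Kmt2a had the largest difference, 0.34, with an SD of 0.21 among its XAV939 arrays, of which replicate 2 stood at 8.88 and the others at 8.53 and 8.52.

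The same question could be asked with CHIR99021 present, comparing both compounds with CHIR99021 alone, and that comparison shares no array with the previous one. Again limma called no member, and it called 0.0251% of all genes. Of the 47 expressed members 42 had a higher mean with both compounds, against 48.3% of all genes and 64.9% in the brightness range. The median over the 47 was 0.15 (quartiles 0.08 and 0.23), against -0.0045 over all genes and 0.05 in the brightness range. In all, 22 of 48 had an unadjusted p under 0.05, against 11% of all genes. In 25 of 48 members (52.1%) the groups did not overlap, against 8.92% of all genes and 15.8% in the same brightness range. Both differences were positive in 42 of the 47 expressed members, compared with 43.4% of all expressed genes and 48% of genes in the brightness range. Kmt2c, a methyltransferase of enhancers, had the smallest p (0.28, SE 0.07, limma adjusted p = 0.202). It was at 7.50, 7.58 and 7.62 with CHIR99021 and at 7.81, 7.88 and 7.86 with both. Nf1 had 0.29 (SE 0.07) and Dync1h1 0.33 (SE 0.09), with limma adjusted p = 0.244 and 0.246. For Lrp2 the CHIR99021 arrays were at 9.01, 8.97 and 9.16 and those with both at 9.30, 9.45 and 9.23, and its difference between both compounds and untreated was 0.16. Exceptions on the negative side were Chd9 (-0.08), Cenpe (-0.05), Chd6 (-0.03), and Cenpf and Atr (each under 0.01 in size).

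**Figure D3:**
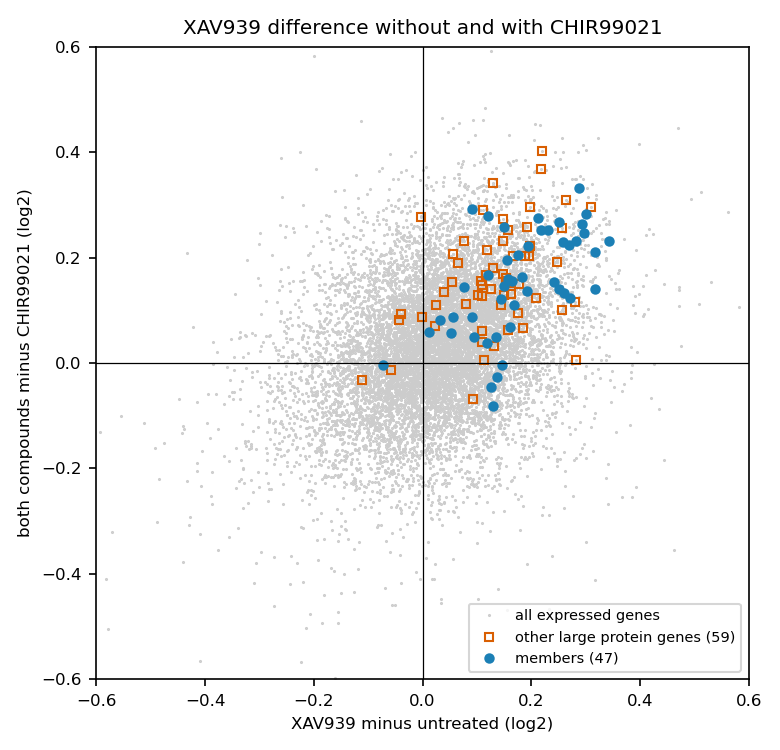
XAV939 minus untreated (horizontal) against both compounds minus CHIR99021 (vertical), in log2 units, for all 11597 expressed genes in grey, the 47 expressed members in blue and 59 other expressed genes of large proteins as orange squares; 11 genes lie outside the plotted range of ±0.6. Both values are positive for 42 of the 47 blue points.

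The CHIR99021 comparisons were made in the same way. Against untreated cells, limma called no member and 0.421% of all genes. The median over the expressed members was 0.09, against -0.0053 over all genes and 0.03 in the brightness range. In these members 37 of 47 were higher, against 48.1% of all genes and 59.2% in the brightness range. An unadjusted p under 0.05 was found in 3 of 48 members, against 10.3% of all genes. In 11 of 48 members (22.9%) every CHIR99021 array was above every untreated array, against 8.09% of all genes and 13.2% in the brightness range. Without CHIR99021 replicate 3 the median was 0.05. The smallest p values were those of Setd2 (0.20, SE 0.07), Ep400 (0.18, SE 0.07) and Nbea (0.16, SE 0.07), with limma adjusted p = 0.334, 0.343 and 0.443. Setd2 was at 9.10, 9.16 and 9.16 untreated and 9.26, 9.34 and 9.43 with CHIR99021, without overlap. With XAV939 present, comparing both compounds with XAV939 alone, limma again called no member and 0.236% of all genes, and 5 of 48 members had an unadjusted p under 0.05, against 9.69%. The median over expressed members was 0.05, against -0.0035 over all genes and 0.03 in the brightness range, and 12 of 48 (25%) had non-overlapping higher groups, against 6.94% of all genes and 10.9% in the brightness range. Nbea (0.19, SE 0.07), Nf1 (0.18, SE 0.07) and Vps13c (0.17, SE 0.07) had the smallest p, with limma adjusted p = 0.382, 0.457 and 0.472. Nbea, a BEACH protein of vesicle traffic, was at 8.17, 8.16 and 8.17 with XAV939 and at 8.35, 8.38 and 8.34 with both. Both CHIR99021 differences were positive in 31 of 47 expressed members and in 37.5% of all expressed genes.

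The interaction, which is the CHIR99021 difference with XAV939 minus that without it, called no member and 0% of all genes by limma, and no member had an unadjusted p under 0.05, against 4.94% of all genes. Its median over expressed members was -0.02, against 0.0019 over all genes, and it lay above 0 without CHIR99021 replicate 3, at 0.0317. Nf1 (0.20, SE 0.11), Chd9 (-0.21, SE 0.12) and Kmt2c (0.16, SE 0.09) had the smallest p, with limma adjusted p = 0.965 for each. Nf1 was at 8.02, 7.95 and 8.01 untreated, 7.88, 7.98 and 8.05 with CHIR99021, 8.06, 8.02 and 8.18 with XAV939 and 8.18, 8.29 and 8.31 with both. A missed threshold does not show that the compounds act independently on these genes.

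In the order of groups, 35 of the 47 expressed members had their highest mean with both compounds, 10 with XAV939 and 2 with CHIR99021. The lowest mean was in untreated cells for 35 and with CHIR99021 for 9. Of all expressed genes, 37.2% were highest with both compounds and 36.2% lowest in untreated cells. Seen by array, the median deviation of the expressed members from their own means was -0.12, -0.11 and -0.13 on untreated arrays and -0.11, -0.06 and 0.02 with CHIR99021. It was 0.04, 0.06 and 0.07 with XAV939 and 0.12, 0.15 and 0.08 with both compounds. In these deviations, which are not matched on brightness, all 6 arrays with XAV939 were above all 6 without it. CHIR99021 replicate 3 came nearest to the arrays with XAV939. The CHIR99021 group spread most, with an SD of 0.07 against 0.01 untreated, 0.01 with XAV939 and 0.03 with both. An expressed member had a median within-group SD of 0.08, and an expressed gene of 0.11.

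Brightness moved with the same contrasts. Genes were sorted into 10 classes by mean level, and the median difference between both compounds and untreated was taken in each. It was -0.09 over class 4, 0.10 over class 7, 0.10 over class 8, 0.08 over class 9 and 0.03 over class 10. Of the 47 expressed members, 26 lay in classes 8 and 9 and 10 in class 10. Each member was therefore set against the other genes of like brightness, in 50 bins of at least 398 genes. Relative to its bin, the median member stood at 0.17 with both compounds against untreated, in place of 0.24. The corresponding values were 0.12 for XAV939 against untreated, 0.11 for both against CHIR99021, 0.06 for CHIR99021 against untreated and 0.01 for both against XAV939. Members above their bin numbered 42, 46, 41, 35 and 26 of 47 in that order. By array, the members' median deviation relative to the bins was 0.0154 on CHIR99021 replicate 3 and 0.0183 on XAV939 replicate 1. On this measure the arrays with and without XAV939 nearly met. The members' array medians had a correlation of 0.51 with the SD of the arrays (12 arrays, 4 groups). With that SD as a covariate the median with both compounds was 0.20 and no member was called. A lost call did not always come with a smaller difference. With the covariate Mdn1 had 0.37 (0.36 without it), Herc2 0.37 (0.33) and Dync1h1 0.42 (0.40), while Dst had 0.34 (0.37). The mean array SD was 2.16 untreated and 2.20 with both compounds, so the covariate was not independent of the groups. The part of the spread of the arrays in these differences was not tested further.

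**Figure D4:**
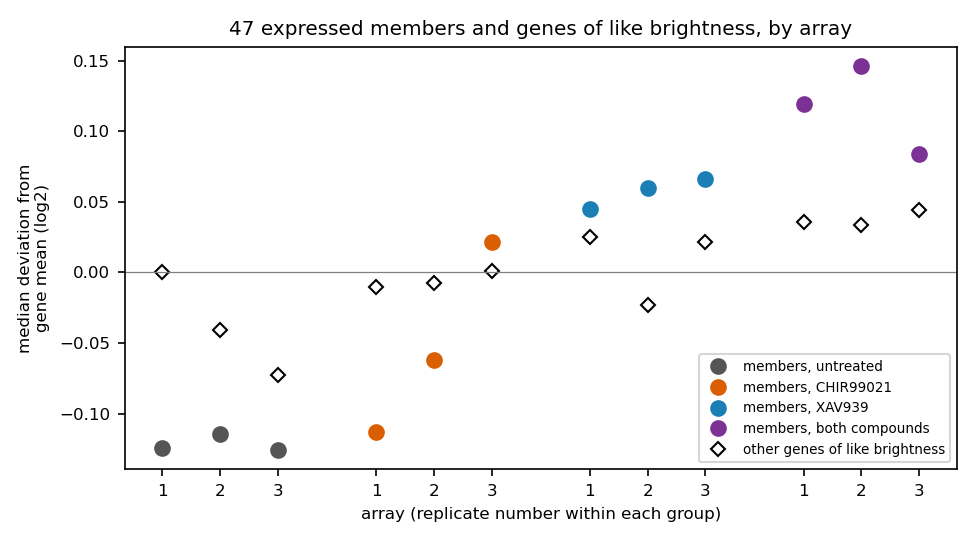
Median over the 47 expressed members of the deviation from each gene's mean over 12 arrays (filled circles, coloured by group), and the same for other genes of like brightness (open diamonds), in log2 units; replicates have no order. The members range from -0.13 on an untreated array to 0.15 on an array with both compounds, and the reference genes from -0.07 to 0.04.

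Other genes of large proteins were listed from general knowledge, without a length limit and with earlier results of these data known. They are thus no independent set, and their values are descriptions. Of 92 named, 80 were measured and 59 were above background. With XAV939 against untreated the 59 had a median of 0.14, with 53 positive, against 61.9% of all expressed genes. With both compounds against CHIR99021 they had 0.15, with 56 positive, against 61.5% of all expressed genes. With both against untreated the median was 0.19. In that comparison 5 of the 80 were called (6.25%), all higher, against 0.818% of all genes called higher. Of these 5, 1 was Usp24, which is also in the ubiquitin list above. Zzef1 (0.42, SE 0.08), Golga4 (0.40, SE 0.09) of the Golgi and Lama5 (0.38, SE 0.09), a laminin chain, had the largest differences. Relative to their brightness bins the medians of the 59 were 0.10, 0.12 and 0.15. The 94 measured partner genes of the lists named above, some of which also encode large proteins, had medians of 0.05 with XAV939, 0.05 with both against CHIR99021 and 0.08 with both against untreated. Against their brightness bins these were 0.01, 0.02 and 0.02. No test of the difference between these lists was made.

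Chd7, a chromodomain helicase needed in neural crest, offered a view within 1 gene, because 30 probes were annotated to it alone. All 30 were above background, with means from 6.88 to 10.7. The brightest, which stood for the gene, differed by 0.07 with both compounds against untreated. The 29 others had a median of 0.24, from -0.09 to 0.59, and 27 of them were positive. The 15 dimmer probes, at 6.88 to 8.65, had a median of 0.34 (all 15 positive), and the 15 brighter ones a median of 0.17 (13 positive). The same order was seen for XAV939 against untreated (0.22 and 0.14) and for both against CHIR99021 (0.31 and 0.09). Over all genes the median for both compounds against untreated also fell with brightness, from 0.10 in class 7 to 0.03 in class 10. The Chd7 probes were not set against brightness bins. These probes share their target and their arrays, so they are not replicates. With the mean of all 30 probes, Chd7 differed by 0.25 (SE 0.07) with both compounds and was not called (limma adjusted p = 0.0943). The choice of the brightest probe thus moved its difference by more than 3 times. Among the 7 other members with several probes, Chd6 had 0.13 on the probe used and -0.02 on the other, while Kmt2d had 0.34 and 0.50 and Setd2 0.25 and 0.30.

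**Figure D5:**
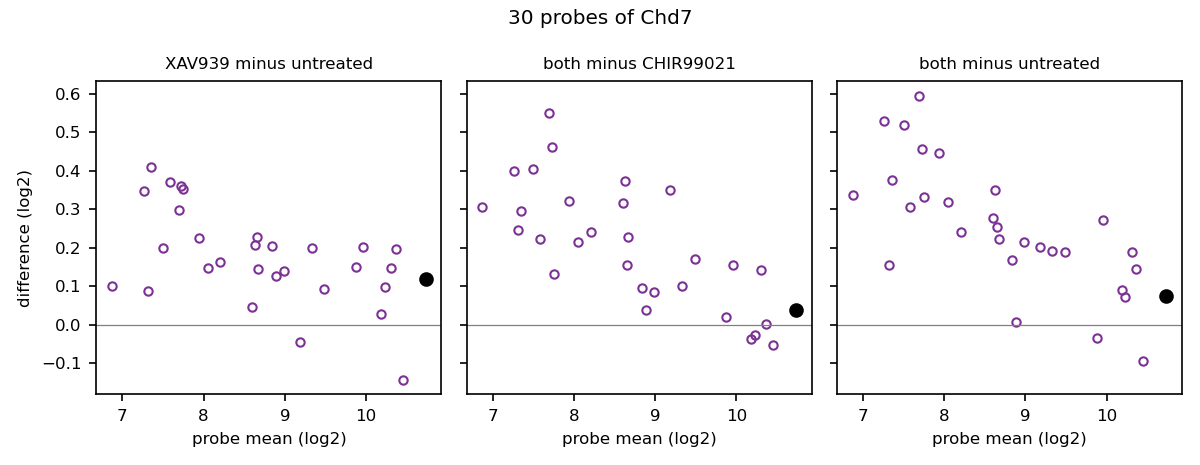
Difference in log2 units against the mean over 12 arrays for the 30 probes of Chd7, in 3 comparisons; the filled point is the probe that stood for the gene. Dimmer probes have the larger differences, with medians of 0.34 in the dimmer 15 and 0.17 in the brighter 15 for both compounds against untreated. The differences are not set against other genes of like brightness.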

How the data were processed

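Per the labels' protocols, total RNA from each of 12 samples carried a biotin label and went onto its own Affymetrix array. The values deposited by the authors were taken as log2 expression, a base inferred from their range. Per the submitters' processing notes the software was Partek; how background, normalization and probe summary were handled is not given in the sources used here. The platform annotation gave 1 symbol for 21789 of 35399 probes and several for 1621, and it did not list 11989. Symbols were updated through RefSeq (GRCm38.p6; 91 probes unmatched), and the brightest probe per gene left 19938 genes.

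Group means of all 12 arrays were fitted with limma 3.58.1 in R 4.3.3 (lmFit and eBayes, two-sided; 8 residual and 8.03 prior degrees of freedom), with Benjamini-Hochberg adjustment over all genes per contrast. The fit was tested on simulated data with added differences larger than those of the called members, so that test does not cover differences of their size. Precision is limited by having 3 arrays per group. Standard errors (SE) and 95% intervals are from the fit. The members and lists were chosen with earlier results of these data known. Members called in any comparison, or else the 3 with the smallest p, are given in full; other members are named with differences. The named Syne2, Chd6, Kmt2d, Setd2 and Chd7 probes, the genes with exceptions in sign and those with the largest XAV939 difference were chosen after their values were seen. A comparison by protein length was planned and not run, since no protein table was used here; a list of other large protein genes replaced it. Alternatives covered normalization, filters, probe rule, weights, moderation, a replicate block, array SD and arrays left out. Figures used matplotlib 3.10.9 in Python 3.11.15.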

Additional observations from a re-analysis of the deposited data

How the results depend on the processing

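With both compounds against untreated, the 9 called members became 1 after quantile normalization, 1 after cyclic loess, 2 in a fit to those groups alone, 5 with a replicate block, 0 with the array SD as covariate, 0 without untreated replicate 3 and XAV939 replicate 2 together, 0 at a fold of at least 1.5, 18 with a filter at the median and 16 with array weights. Leaving out single arrays gave 0 to 11. All calls were higher. Vps13c kept its call in 18 of 24 alternative fits, Vps13d in 6, and none of the 9 changed sign. The filters, the moderation, the replicate block and leaving out a CHIR99021 or XAV939 array cannot change this difference, only its p. In those fits the sign was thus fixed in advance. No call arose in the other comparisons under any alternative run. The median difference with both compounds was 0.20 after quantile normalization, 0.19 after cyclic loess, 0.20 with the array SD and, a choice made after seeing the data, 0.17 relative to genes of like brightness. That last reference gave 0.12 for XAV939 against untreated, 0.11 for both against CHIR99021 and 0.0064 for both against XAV939; quantile normalization gave 0.0103 for the latter, and cyclic loess 0.11 for both against CHIR99021. Leaving out single arrays gave medians of 0.2308 to 0.2445 for both compounds against untreated and 0.161 to 0.183 for XAV939 against untreated. The range was 0.121 to 0.1846 for both against CHIR99021 and 0.0389 to 0.0639 for both against XAV939. It was 0.0483 to 0.1253 for CHIR99021 against untreated and -0.0468 to 0.0317 for the interaction. The replicate numbers were not used to pair the arrays in the main fit. Deviations of same-numbered arrays correlated above 0.1 in 6 of 18 pairs (range -0.247 to 0.201, mean 0.01). With 3 arrays a group, these correlations cannot exclude pairing among some arrays. Values by protein length were planned and not run. With 3 arrays a group, no array was tested for standing apart, and no interaction was called.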
